A study of Rattus norvegicus with 9 samples.

Results

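The 10 genes described here belong to the integrated stress response. They were Atf3, Atf4, Atf5, Ddit3, Ddit4, Trib3, Asns, Chac1, Sesn2 and Hspa5. They were chosen by symbol from the deposited table of 32883 rat genes, each symbol matched 1 entry, and all 10 were among the 15517 genes with enough counts to be tested. The samples were vestibular epithelia, the balance organs of the inner ear, from male rats, and the genotype given is the Long-Evans strain alone. Treated rats drank 20 mM 3,3'-iminodipropionitrile (IDPN), a nitrile that damages the sensory hair cells, for 3 weeks (IDPN-3wk) or 7 weeks (IDPN-7wk), and control rats drank plain water. RNA of the utricles and cristae of 1 rat was pooled into 1 library, with 3 libraries per group. A common control group served both exposure times and included rats killed at each of them. The age of these rats is not given in the sources used here. A library of this kind is a mixture of hair cells, supporting cells, nerve endings, glia and other cells, so that fewer cells of a type and less RNA per cell cannot be told apart.

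The integrated stress response begins when kinases that sense unfolded protein, amino acid shortage, viral RNA or haem shortage phosphorylate the translation factor eIF2. General protein synthesis then falls, while the transcription factor ATF4 is translated more, and ATF4 in turn activates genes for amino acid supply, for other transcription factors (ATF3, CHOP and ATF5) and for feedback control. ATF4 is therefore controlled mainly in translation, which a measurement of RNA does not see, and its activity is read from its target genes. ATF3 can also be induced by other routes, such as JNK and AP-1 signalling after injury, and HSPA5 (BiP), the main chaperone of the endoplasmic reticulum (ER), is controlled by the ATF6 and XBP1 branches of the unfolded protein response as well as by ATF4. The comparison asked whether Atf3 rose alone or together with the ATF4 targets.

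Depth was similar across the libraries, with totals from 31100118 to 46018385 estimated counts, and a level of 3 counts corresponded to 0.0611 to 0.101 CPM (counts scaled to a common library size). Fewer genes were detected, when all libraries were compared at the same depth, in 3 of them (control replicate 3, IDPN-3wk replicate 1 and IDPN-3wk replicate 2, with 15387 to 15501 genes) than in the other 6 (16829 to 17296 genes). The smaller set holds no IDPN-7wk library, and in a comparison at 3 weeks 1 arm of each set is a single rat, so values within the sets carry no test. Values within each set are given beside some of the results that they change, as differences between means of log2(CPM + 2). Other members also differed between the sets at 3 weeks. Against control, Ddit3 had -0.84 among the libraries with fewer genes and -0.12 among the others. Chac1 had 0.38 and -0.30 in this order, and Atf4 had -0.27 and 0.091. Markers of the labelled tissue were present: the 8 hair cell markers summed to between 2078 and 2549 CPM in the controls and the 7 supporting cell markers to between 12551 and 13120 CPM. Hair cell markers were lower after IDPN, with sums of 947 to 1268 CPM at 3 weeks and 990 to 1105 CPM at 7 weeks.

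Of the 10 genes, Atf3 rose and Hspa5 fell after 7 weeks of IDPN, and the other 8 did not pass the test. A differentially expressed gene (DEG) had an adjusted p under 0.05 in the quasi-likelihood test of edgeR, with Benjamini-Hochberg adjustment over all genes tested, and a fold change above 1.5. The count of 1 DEG higher and 1 DEG lower among 10 genes stands beside 2.00% of all genes tested that were called higher and 3.13% called lower at 7 weeks. At 3 weeks none of the 10 genes was a DEG with edgeR or with DESeq2, where 1.65% of all genes were called by edgeR. An unadjusted p under 0.05 was reached at 3 weeks by 2 genes, Asns (higher) and Hspa5 (lower), and by 15.8% of all genes. At 7 weeks it was reached by 3 of the 10 genes, Atf3, Asns and Hspa5, and by 19.3% of all genes. The median log2 fold change of the 10 genes at 3 weeks was -0.14, that at 7 weeks was 0.065, and the median of all genes was -0.000467 and 0.00970.

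**Figure D1:**
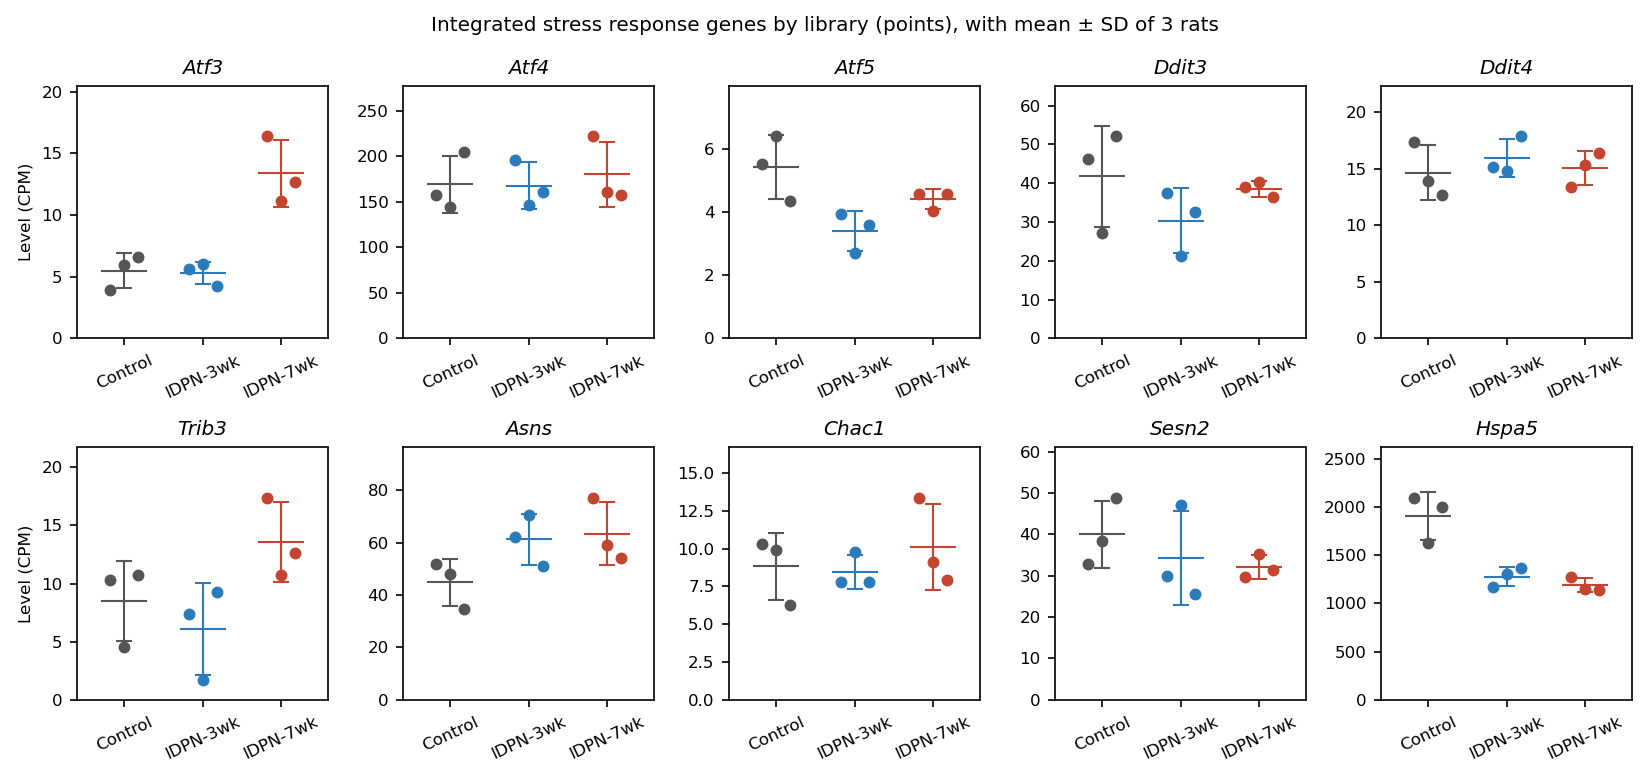
Level of each of the 10 genes in CPM (y axis, starting at 0, with a scale of its own for each gene) in the control, IDPN-3wk and IDPN-7wk libraries. Points are single rats, horizontal lines are means and error bars are SD (n = 3). The IDPN-7wk rats lie above all controls for Atf3 (11.1 to 16.4 against 3.88 to 6.58 CPM) and below them for Hspa5 (1143 to 1273 against 1624 to 2093 CPM).

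Atf3 (ENSRNOG00000003745) encodes a transcription factor of the ATF/CREB family that is low in resting tissue and induced early after stress or injury. Its level was 3.88, 5.95 and 6.58 CPM in the controls, 5.64, 5.99 and 4.27 CPM in the IDPN-3wk rats and 16.4, 11.1 and 12.7 CPM in the IDPN-7wk rats. The IDPN-3wk rats lay within the range of the controls, and all IDPN-7wk rats lay above every control and every IDPN-3wk rat. The group means were 5.47 ± 1.41, 5.30 ± 0.908 and 13.4 ± 2.70 CPM (SD, n = 3). At 3 weeks the log2 fold change was -0.045, with a 95% interval from -0.69 to 0.60 and an adjusted p of 0.967. At 7 weeks Atf3 was 2.45-fold higher, with a log2 fold change of 1.29 ± 0.29 (SE), an interval from 0.64 to 1.94 and an adjusted p of 0.0290. Against the IDPN-3wk rats it was 1.34 higher on the log2 scale (0.68 to 1.99), which did not pass the threshold with edgeR (adjusted p = 0.0922) and did with DESeq2 (adjusted p = 0.00246). The study itself names Atf3 as an upregulated gene, with these libraries among its data, so the direction found here is not independent of that choice. It also reports higher Atf3 in separate experiments with IDPN in mice and with streptomycin in rats, and in rats given IDPN for a time between 3 and 7 weeks. At that time its in-situ hybridization found more Atf3 RNA in hair cells of treated rats. The call rested on 3 libraries per group, since Atf3 kept its direction but lost the call when control replicate 1 or 2 or any of the IDPN-7wk replicates was left out (log2 fold changes of 1.10 to 1.41, adjusted p of 0.0565 to 0.145). Among the 6 libraries with more genes detected, the difference at 7 weeks was 1.16, and the edgeR fit of these 6 gave 1.45 (adjusted p = 0.0106).

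Atf4 (ENSRNOG00000017801), the central factor of the pathway, did not pass the test at either time. In separate experiments, the study lists Atf4 and Cebpb as upregulated in rats given streptomycin. It lists both also in rats given IDPN for a time between 3 and 7 weeks. The study proposes that ATF3, ATF4 and Cebpb take part in a stress response to both compounds. In the libraries used here, Atf4 was at 158, 145 and 205 CPM in the controls, at 196, 146 and 161 CPM in the IDPN-3wk rats and at 222, 161 and 158 CPM in the IDPN-7wk rats. The 3 groups overlapped throughout, and the spread within each group was wider than the distance between their means. Its log2 fold change was -0.011 (-0.40 to 0.38, adjusted p = 0.987) at 3 weeks and 0.092 (-0.30 to 0.48, adjusted p = 0.852) at 7 weeks, so that a rise of Atf4 as large as the lower bound for Atf3 lay outside its interval. Set against each other within each library, Atf3 had 2.46, 4.12 and 3.22 counts per 100 counts of Atf4 in the controls and 2.88, 4.10 and 2.66 in the IDPN-3wk rats. In the IDPN-7wk rats it had 7.39, 6.90 and 8.06 counts per 100 of Atf4, above all other libraries. An exact two-sided permutation test of this ratio gave p = 0.1 at 7 weeks against control, the smallest p that 3 rats against 3 allow, and p = 0.9 at 3 weeks (0.15 and 0.9 after Benjamini-Hochberg adjustment over 3 tests).

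Atf5 and Ddit3 are the other transcription factors among the 10 genes. Atf5 (ENSRNOG00000020060), an ATF4 target that is itself controlled in translation and is linked to the mitochondrial stress response, was at 5.53, 6.39 and 4.36 CPM in the controls, 3.92, 2.69 and 3.60 CPM in the IDPN-3wk rats and 4.58, 4.03 and 4.58 CPM in the IDPN-7wk rats. The IDPN-3wk rats were below all controls, as in 10.9% of all genes tested, with a log2 fold change of -0.67 (-1.41 to 0.066) that did not pass the test (adjusted p = 0.366). At 7 weeks it overlapped with the controls, with a log2 fold change of -0.30 (-1.03 to 0.43, adjusted p = 0.707). Ddit3 (ENSRNOG00000006789) encodes CHOP, which promotes cell death when ER stress is not resolved. Its level was 46.2, 27.2 and 52.1 CPM in the controls, 37.4, 21.2 and 32.6 CPM in the IDPN-3wk rats and 39.0, 40.3 and 36.4 CPM in the IDPN-7wk rats. Control replicate 2 and IDPN-3wk replicate 2 were the lowest libraries, and the IDPN-7wk rats lay between the lowest and the highest control. The log2 fold changes of Ddit3 were -0.46 (-1.04 to 0.12, adjusted p = 0.427) at 3 weeks and -0.12 (-0.69 to 0.46, adjusted p = 0.878) at 7 weeks.

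Trib3 (ENSRNOG00000007319) encodes a pseudokinase induced by ATF4 and CHOP that restrains both. Of the 10 genes it varied most within the controls and within the IDPN-3wk rats, with coefficients of variation of 40.7% and 64.6%. In the IDPN-7wk rats it had 25.3%, where Chac1 had 28.1%. The controls had 10.3, 4.51 and 10.7 CPM, the IDPN-3wk rats 7.36, 1.68 and 9.26 CPM and the IDPN-7wk rats 17.4, 10.7 and 12.6 CPM. As for Ddit3, the lowest levels were in control replicate 2 and IDPN-3wk replicate 2. All IDPN-7wk rats were above all IDPN-3wk rats, as in 12.1% of all genes tested, but the lowest of them was level with the highest control. The log2 fold change at 7 weeks was 0.67 against control (-0.53 to 1.88, adjusted p = 0.578) and 1.15 against IDPN-3wk (-0.069 to 2.37, adjusted p = 0.390). Its interval at 7 weeks holds both no change and the change of Atf3. At 3 weeks the difference from control was -1.11 among the libraries with fewer genes detected (1 control and 2 IDPN-3wk rats) and 0.33 among the others (2 controls and 1 IDPN-3wk rat).

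Asns (ENSRNOG00000007546) encodes asparagine synthetase, a classical ATF4 target that makes asparagine when amino acids are short. It was at 51.9, 48.0 and 34.8 CPM in the controls, at 62.3, 70.6 and 51.0 CPM in the IDPN-3wk rats and at 77.1, 59.0 and 54.3 CPM in the IDPN-7wk rats. All IDPN-7wk rats were above all controls, as in 17.2% of all genes tested, while IDPN-3wk replicate 3 was below the highest control. Asns differed from control by 0.45 on the log2 scale at 3 weeks (0.015 to 0.88, adjusted p = 0.301) and by 0.50 at 7 weeks (0.066 to 0.93, adjusted p = 0.192), so that it passed an unadjusted p of 0.05 at both times and the adjusted threshold at neither. The difference at 3 weeks was 0.89 among the libraries with fewer genes detected, where control replicate 3 had the lowest level of all, and 0.029 among the others. At 7 weeks, the difference among the other libraries was 0.32.

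Chac1 (ENSRNOG00000014387), which encodes an enzyme that breaks down glutathione and is induced by ATF4, was at 10.3, 9.93 and 6.27 CPM in the controls and at 13.3, 9.09 and 7.95 CPM in the IDPN-7wk rats. These ranges overlapped, with a log2 fold change of 0.20 (-0.44 to 0.84, adjusted p = 0.795), and the IDPN-3wk rats had 7.79, 9.76 and 7.81 CPM. Ddit4 and Sesn2 encode REDD1 and sestrin 2, which inhibit mTORC1, the kinase complex that promotes protein synthesis and growth. Ddit4 (ENSRNOG00000057078) stayed between 12.7 and 17.8 CPM in all 9 libraries, with log2 fold changes of 0.12 (-0.31 to 0.56) at 3 weeks and 0.038 (-0.39 to 0.47) at 7 weeks. Sesn2 (ENSRNOG00000042785) was at 33.0, 38.3 and 48.8 CPM in the controls, 30.0, 47.1 and 25.7 CPM in the IDPN-3wk rats and 29.7, 35.2 and 31.3 CPM in the IDPN-7wk rats. Its groups overlapped, and its log2 fold change at 7 weeks was -0.32 (-0.84 to 0.20, adjusted p = 0.529).

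**Figure D2:**
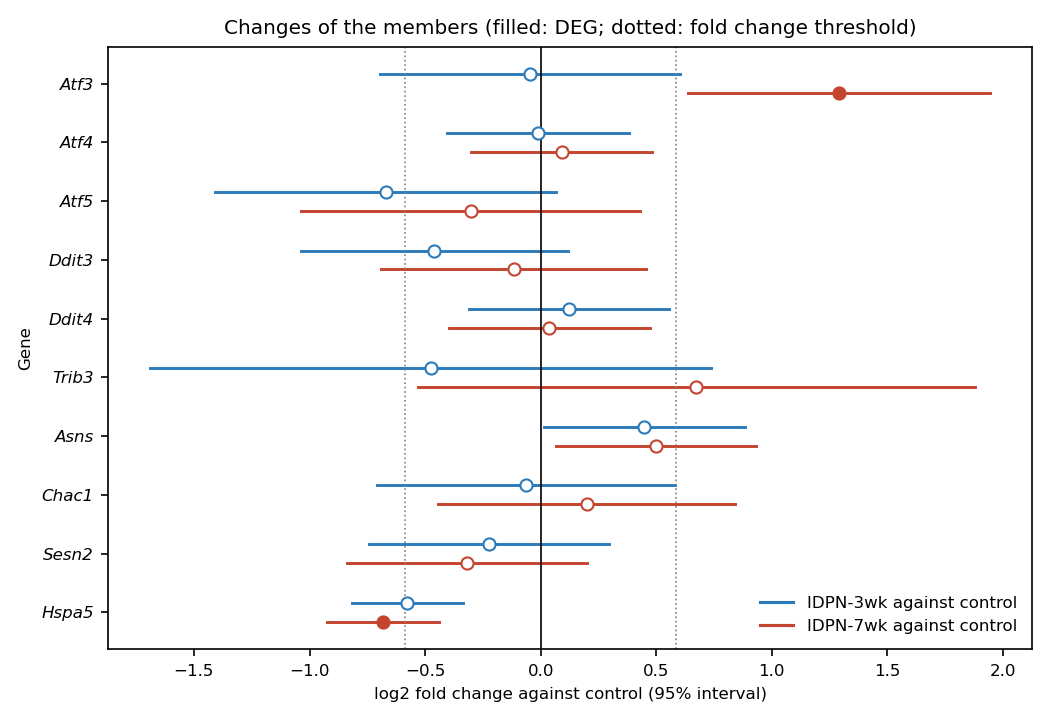
Log2 fold changes of the 10 genes (y axis) against control at 3 weeks (blue) and 7 weeks (red), with 95% intervals from the edgeR fit. Filled points are DEGs and dotted lines mark a fold change of 1.5. Only Atf3 (1.29) and Hspa5 (-0.68) are filled, both at 7 weeks, and the intervals of Trib3, Asns and Chac1 at 7 weeks reach past 0.64, the lower bound for Atf3.

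The other ATF4 targets thus differed in how closely they were bounded at 7 weeks. The upper bounds for Atf5 (0.43), Ddit3 (0.46), Ddit4 (0.47) and Sesn2 (0.20) lay below the lower bound for Atf3 (0.64). Those for Trib3 (1.88), Asns (0.93) and Chac1 (0.84) did not, so that their intervals also hold a rise as large as that bound. Apart from the ratio of Atf3 to Atf4, no difference between members was tested. As a description over the 9 libraries, with each gene's log2 CPM taken relative to its own control mean, Asns was the member closest to Atf3 (root mean square difference of 0.627, rank 820 of the tested genes), and Hspa5 was the farthest (1.22).

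Hspa5 (ENSRNOG00000018294) was lower after IDPN at both times. Its level was 2093, 1624 and 2000.0 CPM in the controls, 1166, 1302 and 1366 CPM in the IDPN-3wk rats and 1273, 1146 and 1143 CPM in the IDPN-7wk rats. Every treated rat was below every control, and the treated groups overlapped with each other. The means were 1906 ± 248, 1278 ± 102 and 1188 ± 74.2 CPM (SD, n = 3). At 7 weeks the log2 fold change was -0.68 ± 0.11 (SE), with an interval from -0.92 to -0.44 and an adjusted p of 0.00514 with edgeR. At 3 weeks it was -0.58 (-0.82 to -0.34, adjusted p = 0.0277), just short of the fold change threshold, so that Hspa5 passed the p threshold there without being a DEG. The difference between 7 and 3 weeks was -0.11 (-0.35 to 0.13, adjusted p = 0.729). At 3 weeks the difference was -0.70 among the libraries with fewer genes detected and -0.43 among the others, and the fit without the former gave -0.44 with an adjusted p of 0.276. That fit holds 1 IDPN-3wk rat against 2 controls and assumes that this rat varies like the other groups. The call at 7 weeks held without any of the 6 libraries compared (log2 fold changes of -0.79 to -0.61).

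Levels of cell type markers also differed between the groups. At 7 weeks all 9 macrophage markers were higher than in the controls, with 1 DEG (C1qb), and their sums were 70.7 to 113 CPM in the controls, 50.9 to 137 CPM in the IDPN-3wk rats and 208 to 268 CPM in the IDPN-7wk rats. Cx3cr1 of this list was at 0 counts in 1 library, IDPN-3wk replicate 1. Of the 8 hair cell markers, 3 were DEGs at 3 weeks and 6 at 7 weeks, all lower. Of all genes tested, 1.65% were called in either direction at 3 weeks, and 2.00% were called higher and 3.13% lower at 7 weeks. The supporting cell markers summed to 7491 to 9439 CPM at 3 weeks, with 1 DEG, and 5109 to 7371 CPM at 7 weeks, with 3 DEGs, all lower. The 8 Schwann cell markers summed to 9647 to 12125 CPM in the controls and 7757 to 10320 CPM at 3 weeks. At 7 weeks they summed to 3301 to 6934 CPM, with 2 DEGs, both lower. No marker of the hair cell, supporting cell or Schwann cell lists was at 0 in any library. The part of these shifts in the higher Atf3 and the lower Hspa5 was not tested.

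Around the 10 genes, 6 lists of related genes held 118 tested genes and 8 DEGs at 7 weeks, of which 4 were higher and 4 lower, where 2.00% of all genes tested were called higher and 3.13% lower. The first list held the kinases that phosphorylate eIF2, its subunits, its exchange factor eIF2B and its phosphatases. Of 17 tested genes of it, only Eif2ak2 was a DEG. At 7 weeks the log2 fold change was above 0 for 14 of the 17 and below 0 for 3. All IDPN-7wk rats were above all controls in 8 of the 17 and below them in 0, where all genes tested gave 17.2% and 17.1%. Eif2ak2 encodes PKR, the eIF2 kinase activated by double-stranded RNA and a gene induced by interferon. It was at 43.0, 42.9 and 49.0 CPM in the controls, 65.4, 78.8 and 56.3 CPM in the IDPN-3wk rats and 141, 126 and 130 CPM in the IDPN-7wk rats. All 3 groups were apart from each other. The log2 fold change at 7 weeks was 1.56 ± 0.14 (SE, adjusted p = 0.000191) against control and 0.99 (adjusted p = 0.0103) against IDPN-3wk, and the latter call was lost without IDPN-7wk replicate 1 or 3. Eif2ak3 (PERK), the kinase for unfolded protein, stood at 0.18 on the log2 scale relative to control at 7 weeks (adjusted p = 0.587), and Eif2ak4 (GCN2), that for amino acid shortage, at -0.25 (adjusted p = 0.527). Ppp1r15a (GADD34), the stress-induced phosphatase subunit, had 0.29 (adjusted p = 0.236), and Eif2b1, a subunit of eIF2B, passed the p threshold alone with 0.51 (adjusted p = 0.0342).

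Of 30 tested genes in a list of other ATF4 targets, 1 was called higher and 2 lower at 7 weeks, and their median log2 fold change was 0.13. Of all genes tested, 2.00% were called higher and 3.13% lower. All IDPN-7wk rats were above all controls in 8 of the 30 and below them in 5, where all genes tested gave 17.2% and 17.1%. An unadjusted p under 0.05 was reached by 2 higher and 4 lower genes of the list, and by 19.3% of all genes. Nupr1, a small chromatin-associated stress protein, was at 6.50, 4.01 and 6.67 CPM in the controls, 14.5, 7.51 and 7.41 CPM in the IDPN-3wk rats and 31.2, 32.8 and 33.0 CPM in the IDPN-7wk rats. It had the largest log2 fold change of the genes called in these lists, 2.496 ± 0.31 (SE, adjusted p = 0.00137), and was 1.72 higher than in the IDPN-3wk rats (adjusted p = 0.0434). Its call against control held without any 1 of the 6 libraries, while that against IDPN-3wk was lost without IDPN-3wk replicate 2 or any of the IDPN-7wk replicates (adjusted p of 0.118 to 0.164). The genes called lower were Vldlr, a lipoprotein receptor, from 49.0 ± 7.49 to 21.6 ± 5.40 CPM (log2 fold change -1.18, adjusted p = 0.0199), and Slc7a11, the cystine transporter, from 62.7 ± 12.0 to 32.0 ± 3.91 CPM (-0.97, adjusted p = 0.0387). Both lost their calls without some of the libraries, Vldlr without control replicate 1 or 3 or IDPN-7wk replicate 1 or 2 and Slc7a11 without any of the 6 libraries compared except control replicate 3. The glutamine transporter Slc38a2 passed the p threshold alone (-0.49, adjusted p = 0.0266). The amino acid transporters Slc7a1 and Slc1a4 stood at -0.16 and 0.30 on the log2 scale at 7 weeks relative to control (adjusted p of 0.657 and 0.449), and the transcription factor Cebpb had 0.18 (adjusted p = 0.961). Cebpb varied from 0.15 to 8.48 CPM among the IDPN-3wk rats alone.

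Cytosolic tRNA synthetases, which ATF4 raises as a group when amino acids are short, gave no DEG among 20 tested genes with edgeR. Their median was 0.083 at 3 weeks and 0.099 at 7 weeks on the log2 scale, and 2 genes were higher and 1 lower at an unadjusted p under 0.05 at 7 weeks, which 19.3% of all genes tested reached. The log2 fold change at 7 weeks was above 0 for 15 of the 20 and below 0 for 5. All IDPN-7wk rats were above all controls in 6 of the 20 and below them in 2, where all genes tested gave 17.2% and 17.1%. Yars stood at 0.16 (adjusted p = 0.634) and Lars at 0.19 (adjusted p = 0.503), and Tars, for threonine, passed the p threshold alone with 0.49 (adjusted p = 0.0281). The 9 tested mitochondrial chaperones and proteases held no DEG with edgeR and no gene at an unadjusted p under 0.05 at 7 weeks.

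Of 28 tested genes for folding and degradation of proteins in the ER, 2 were called lower at 7 weeks and none at 3 weeks with edgeR. Of all genes tested, 3.13% were called lower at 7 weeks. At 3 weeks 7 of the 28 were lower at an unadjusted p under 0.05, which 15.8% of all genes reached in either direction. The log2 fold change was below 0 for 21 of the 28 at 3 weeks and 22 at 7 weeks, with medians of -0.16 and -0.25. Among all 15517 genes tested it was below 0 for 7766 at 3 weeks and 7581 at 7 weeks. All IDPN-7wk rats were below all controls in 13 of the 28 and above them in 2, where all genes tested gave 17.1% and 17.2%. At 7 weeks 11 of the 28 were lower and 1 higher at an unadjusted p under 0.05, which 19.3% of all genes reached in either direction. Hsp90b1 (GRP94), the ER form of HSP90, and Sdf2l1, a partner of HSPA5, were DEGs. Hsp90b1 was at 1896, 1629 and 1958 CPM in the controls, 1196, 1495 and 1555 CPM in the IDPN-3wk rats and 1109, 1152 and 1213 CPM in the IDPN-7wk rats. All treated rats were below all controls, with a log2 fold change of -0.66 ± 0.11 (SE, adjusted p = 0.00729) at 7 weeks. Sdf2l1 was at 84.6, 58.4 and 70.8 CPM in the controls, 48.6, 47.2 and 49.0 CPM in the IDPN-3wk rats and 39.9, 42.8 and 39.8 CPM in the IDPN-7wk rats, again with no overlap (-0.80, adjusted p = 0.00828). Pdia4, a disulfide isomerase, passed the p threshold alone (-0.45, adjusted p = 0.0267), while Xbp1, which encodes a factor that drives this group, had -0.25 (adjusted p = 0.411).

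Promoters of 4 genes are shown as examples that hold 1 of 2 stress elements: a pair of chaperone genes that were called lower and a pair of ATF4 targets that differed in response. They are the 250 bases before the transcription start in RefSeq on the build GRCr8, given 5′ to 3′ in the direction of the gene, and were chosen after the values were seen. Capitals mark matches, on either strand, to the ER stress element (CCAAT and CCACG with 9 bases between them) or to an ATF4 element written TGATGNAAN. No match of one of these elements overlaps the other in the 4 promoters. The sequences are:
Hspa5, chr3:38452766-38453015, plus strand: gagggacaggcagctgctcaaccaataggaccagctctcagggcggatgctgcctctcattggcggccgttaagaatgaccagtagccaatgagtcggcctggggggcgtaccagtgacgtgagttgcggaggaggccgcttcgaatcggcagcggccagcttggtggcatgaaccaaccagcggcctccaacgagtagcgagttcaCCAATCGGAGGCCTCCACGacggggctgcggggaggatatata
Hsp90b1, chr7:23012294-23012543, minus strand: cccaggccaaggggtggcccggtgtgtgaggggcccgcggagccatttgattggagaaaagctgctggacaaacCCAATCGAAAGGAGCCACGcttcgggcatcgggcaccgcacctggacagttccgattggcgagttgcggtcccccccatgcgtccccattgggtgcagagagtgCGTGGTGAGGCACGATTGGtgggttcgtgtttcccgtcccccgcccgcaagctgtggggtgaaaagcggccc
Chac1, chr3:126795881-126796130, plus strand: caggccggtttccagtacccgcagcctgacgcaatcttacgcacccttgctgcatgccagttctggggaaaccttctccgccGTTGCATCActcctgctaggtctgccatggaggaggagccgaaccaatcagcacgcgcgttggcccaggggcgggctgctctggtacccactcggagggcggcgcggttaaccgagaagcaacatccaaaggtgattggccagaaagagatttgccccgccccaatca
Nupr1, chr1:190645902-190646151, minus strand: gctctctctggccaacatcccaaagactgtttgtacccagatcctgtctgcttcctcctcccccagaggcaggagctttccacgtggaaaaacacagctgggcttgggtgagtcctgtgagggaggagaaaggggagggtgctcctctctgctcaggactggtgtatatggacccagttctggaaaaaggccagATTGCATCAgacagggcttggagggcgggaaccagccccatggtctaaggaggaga

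The ER stress element, which ATF6 binds with NF-Y, was present in 0.0657% of 33469 promoters of this length. It was found in Hspa5 at 43 to 25 bases before the start, and in Hsp90b1 at 176 to 158 and at 72 to 54 bases. The ATF4 element was present in 3.38% of promoters. Of the 9 members with an entry it was found in Trib3 (22 to 14 bases before the start) and Chac1 (168 to 160 bases), and it was also found in Nupr1 (56 to 48 bases). Chac1 (log2 fold change 0.20) and Nupr1 (2.496) both hold these letters. Of the other list genes called at 7 weeks, Sdf2l1 held no ER stress element, and Vldlr and Slc7a11 held no ATF4 element, in this window. The cyclic AMP response element TGACGTCA, in 1.59% of promoters, was found in none of the 9, and the AP-1 element TGACTCA, in 4.05%, was found in Atf5 and Ddit3. The entries for Atf3 and Fos are missing. A match describes letters in this window and is not a site of binding or a cause.

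Among the 14 tested AP-1 and ATF/CREB factors, with which ATF3 forms dimers or shares a family, 2 were DEGs at 7 weeks. Both were called higher, as were 2.00% of all genes tested. Fos was at 5.34, 7.24 and 3.49 CPM in the controls, 11.0, 14.6 and 9.81 CPM in the IDPN-3wk rats and 38.9, 19.6 and 22.9 CPM in the IDPN-7wk rats. The 3 groups did not overlap, and the log2 fold change of Fos at 7 weeks was 2.34 ± 0.35 (SE, adjusted p = 0.00373). At 3 weeks it was 1.14, called by DESeq2 (adjusted p = 0.0263) but not by edgeR (adjusted p = 0.131). Junb was at 14.7, 16.0 and 12.0 CPM in the controls, 10.6, 15.5 and 12.7 CPM in the IDPN-3wk rats and 34.1, 29.5 and 23.6 CPM in the IDPN-7wk rats. As for Atf3, the IDPN-3wk rats overlapped with the controls and the IDPN-7wk rats were above both. Of all genes tested, 17.2% had all IDPN-7wk rats above all controls and 12.1% had them above all IDPN-3wk rats. Its log2 fold change at 7 weeks was 1.03 ± 0.22 (SE, adjusted p = 0.0202), a call that it lost without control replicate 1 or 3 or IDPN-7wk replicate 1 or 2. Jun had 0.86 (adjusted p = 0.0834), and the median of the list was 0.54, with 11 genes higher and 3 lower. Over all genes tested, the split was 7936 higher and 7581 lower.

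**Figure D3:**
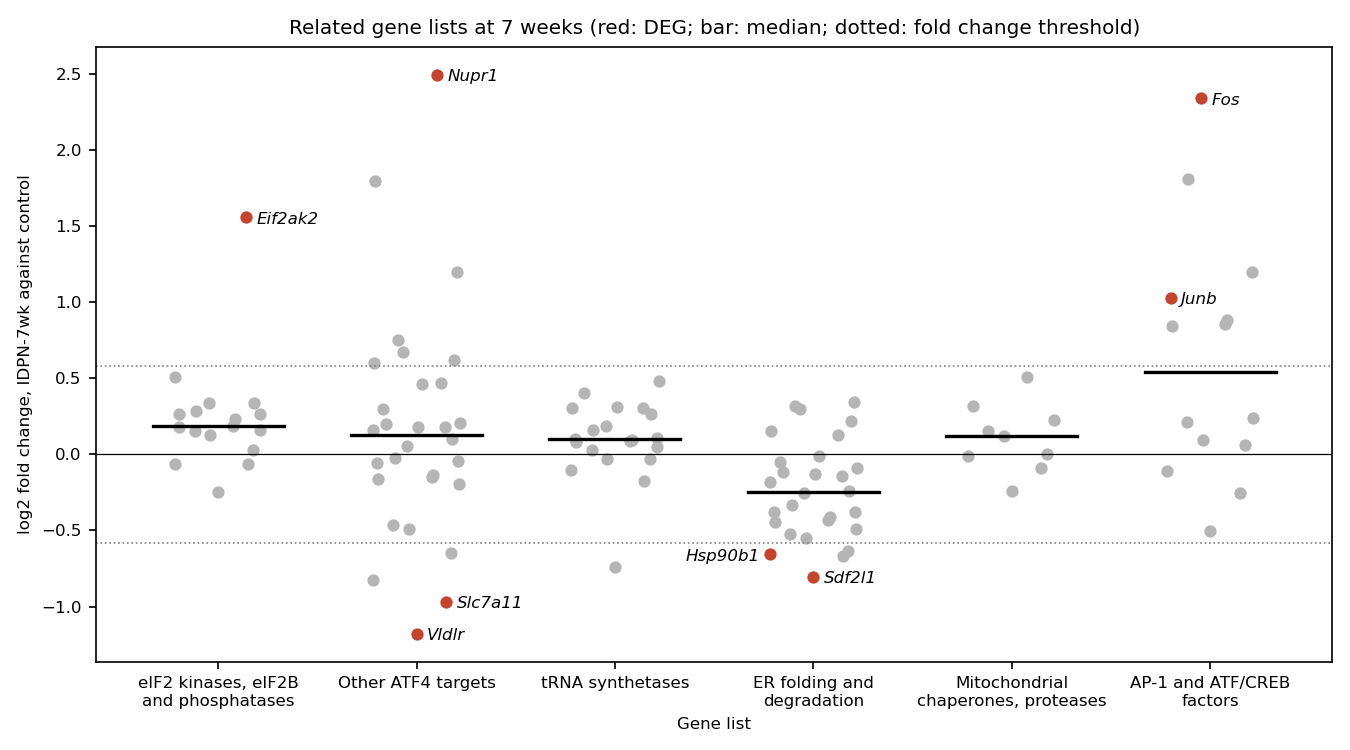
Log2 fold change of IDPN-7wk against control (y axis) for the tested genes of 6 related lists (x axis). Red points are DEGs, black bars are medians and dotted lines mark a fold change of 1.5. The bars lie at 0.19, 0.13, 0.099, -0.25, 0.12 and 0.54 from left to right, and the 8 DEGs are spread over 4 of the lists.

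**Figure D4:**
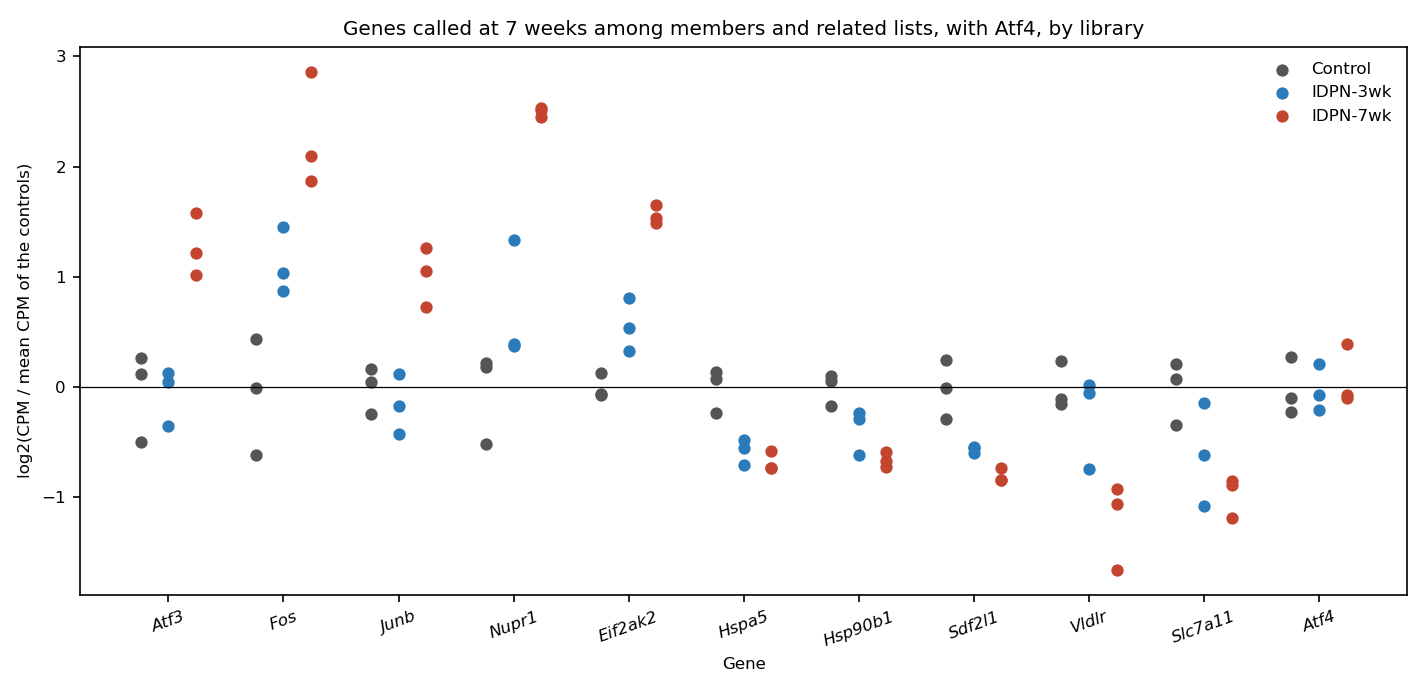
Level in each library (points) as log2 of the CPM over the mean CPM of the controls, for the 2 members and 8 list genes called at 7 weeks and for Atf4. The IDPN-7wk points (red) lie apart from the control points (grey) for all of the genes shown but Atf4, and for Atf3 and Junb the IDPN-3wk points (blue) overlap with the controls.

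The 5 genes with the pattern most like that of Atf3 over the 9 libraries were Igtp, Ppp1r13l, RT1-CE4, B2m and Parp9, with root mean square differences of log2 CPM from 0.224 to 0.283. Igtp is an interferon-induced GTPase, B2m the light chain of class I histocompatibility molecules, RT1-CE4 a heavy chain gene of the same class, Parp9 a gene of the interferon response and Ppp1r13l an inhibitor of p53. At 7 weeks their log2 fold changes were 1.21, 1.06, 1.35, 1.03 and 1.51 in this order, and all but Ppp1r13l (adjusted p = 0.152) were DEGs. These genes were chosen for their likeness to Atf3 over these same libraries, so their rise and calls at 7 weeks describe that choice. Reads of RT1-CE4 can be shared with near-identical genes of its family, so its value is uncertain. None of the 10 members or of the list genes was among these 5.

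Directly compared between the exposure times, none of the 10 genes was a DEG by edgeR, where 0.483% of all genes were called. Of them, 1 had an unadjusted p under 0.05, as had 13.8% of all genes, and DESeq2 called 1, Atf3 in both cases. Atf3, Atf5 and Trib3 were higher in all IDPN-7wk rats than in all IDPN-3wk rats, as were 12.1% of all genes tested. Atf5 differed by 0.37 (-0.37 to 1.10, adjusted p = 0.680), with its lowest levels in the IDPN-3wk rats.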

How the data were processed

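RNA of 9 rats, 3 per group, was sequenced after SMARTseq2, which amplifies cDNA of polyadenylated RNA. The authors mapped reads to the Rnor6.0 genome with STAR 2.5.3a and made estimated counts per gene with RSEM 1.3.0 (versions per the submitters' processing notes), which divides reads that match several genes. The deposited table holds these estimated counts without normalization. Use of strand is not stated, so overlapping genes are uncertain, and gene lengths are not given, so levels were not compared between genes. Without molecular identifiers, copies made by PCR count as reads, and the floor of 3 counts covers counting error only.

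Counts were rounded to whole numbers, filtered with filterByExpr and scaled by TMM in edgeR 4.0.16 (R 4.3.3, limma 3.58.1). All 9 libraries entered 1 quasi-likelihood fit with a mean per group (residual degrees of freedom 6, prior median 4.07), which gave the SE and 95% intervals. The method was tested on simulated data. All libraries carry the same batch label. Replicate numbers follow the order of the records and pair no animals. Each library is a separate rat. The sample titles carry a code that all 3 controls share, another shared by 2 IDPN-3wk rats, another by 2 IDPN-7wk rats and another by 1 rat of each IDPN group. What the code stands for is not given in the sources used here, and a grouping by it and the treatment largely cannot be told apart. Replicates differed by more than sampling noise (chi-square per gene of 19.4 to 78.6).

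The members, lists and motifs were chosen with earlier results of these data known. Named genes were all 10 members, DEGs of the 6 lists (up to 4 per direction), list genes that the study names (Cebpb, Eif2ak2, Slc7a1, Slc1a4, Yars, Lars) and the 5 genes most like Atf3. Of these, the study gives Slc7a1, Slc1a4, Yars and Lars as raised by streptomycin and not by IDPN. List genes that passed the p threshold alone, kinases, Ppp1r15a, Jun and Xbp1 were added after their values were seen. Of the marker lists, those of neurons, endothelial cells, fibroblasts and melanocytes had sums of 122 to 224, 273 to 436, 585 to 842 and 405 to 512 CPM over all libraries, and Prph and Tyr were at 0 counts in 1 library each. In the controls, at 3 weeks and at 7 weeks, neuron sums were 184 to 224, 131 to 140 and 122 to 163 CPM. Endothelial sums were 296 to 305, 344 to 396 and 273 to 436 CPM in this order. Melanocyte sums were 446 to 476, 470 to 512 and 405 to 442 CPM, and the fibroblast sums of the groups overlapped. Alternatives were DESeq2 1.42.0, RLE size factors, a fit of only the groups compared, no filter or a minimum of 10 counts in each library, a fold change above 2 or none, the set of libraries with fewer genes as a covariate, each library left out and, added after the data were seen, a fit without the 3 libraries with fewer genes. Promoters came from RefSeq (GRCr8), a build that differs from that of the counts, and were matched by symbol (16 of 18 genes searched).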

Additional observations from a re-analysis of the deposited data

Results flagged for a closer look

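The rise between 3 and 7 weeks was itself past the test for several genes beside the 10 members. Between the exposure times, edgeR with Benjamini-Hochberg adjustment gave log2 fold changes that were 0.99 for Eif2ak2 (adjusted p = 0.0103) and 1.72 for Nupr1 (adjusted p = 0.0434). Among the genes with a pattern like that of Atf3, they were 1.09 for Igtp (adjusted p = 0.0180), 1.13 for RT1-CE4 (adjusted p = 0.00278), 1.10 for B2m (adjusted p = 0.000396) and 1.45 for Parp9 (adjusted p = 0.0292). Of all genes tested, 0.483% were called in this comparison. Each of these genes was higher in all 3 IDPN-7wk rats than in all 3 IDPN-3wk rats, as were 12.1% of all genes tested. Atf3, with a difference of 1.34 in the same direction, did not pass this test (adjusted p = 0.0922). The last 4 genes were chosen for their likeness to Atf3 over these same libraries, so their values describe that choice. Some of these calls rested on single libraries. That of Eif2ak2 was lost without IDPN-7wk replicate 1 or 3 (adjusted p of 0.0510 to 0.0599), that of Nupr1 without IDPN-3wk replicate 2 or any IDPN-7wk replicate (0.118 to 0.164), that of Igtp without IDPN-3wk replicate 1 or IDPN-7wk replicate 1 or 3 (0.0631 to 0.109) and that of Parp9 without IDPN-3wk replicate 1 or 2 or any IDPN-7wk replicate (0.0502 to 0.119). Without the 3 libraries with fewer genes, which leaves 1 IDPN-3wk rat assumed to vary like the other groups, Igtp and Parp9 lost their calls (adjusted p of 0.108 and 0.0978). Those of RT1-CE4 and B2m held without any 1 of the libraries compared.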

How the results depend on the processing

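Atf3 at 7 weeks had log2 fold changes of 1.29 to 1.45 in the alternatives that kept all groups complete, and 1.10 to 1.45 with 1 library left out. Atf3 at 3 weeks ranged from -0.24 to 0.11 with 1 library left out. Members called at 3 weeks numbered 1 without a fold change threshold and 0 to 1 with a library left out, Hspa5 in each case. At 7 weeks 1 member was called with a fold change above 2, and 1 to 2 with a library left out. Between the exposure times DESeq2 called 1. List genes called at 3 weeks numbered 1 with DESeq2 and 0 to 1 with a library left out. At 7 weeks, 8 in the reported fit became 12 without a fold change threshold, 10 with DESeq2, 5 with a fold change above 2 and 5 to 8 with a library left out. Between the exposure times, 2 became 7 with DESeq2, 4 without a filter or with at least 10 counts, 1 with the covariate, with a fold change above 2 or with only the groups compared, and 0 to 7 with a library left out. The shares of all genes called in these alternatives were not counted. A change in these counts can therefore not be told apart from a change in the overall number of calls. The causes were not tested.

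Of 1089 alternative values for 84 named gene and comparison results, 990 kept their direction and their side of the thresholds, 39 lost a call and 13 gained one. The other 47 changed sign, all among results that were not called. Without the 3 libraries with fewer genes, which leaves 1 IDPN-3wk rat, the log2 fold changes were 0.092 for Atf4, 0.32 for Trib3, -2.71 for Cebpb, 0.23 for Lars, -0.081 for Slc7a1 and -0.29 for Ppp1r13l at 3 weeks, 0.067 for Ddit3 and -0.060 for Ddit4 at 7 weeks, and 0.31 for Sesn2, 2.98 for Cebpb, 0.20 for Yars and -0.020 for Lars between the exposure times. With the covariate they were 0.055 for Chac1, -0.068 for Cebpb, 0.015 for Lars and -0.13 for Ppp1r13l at 3 weeks, -0.047 for Ddit4 at 7 weeks, and 0.28 for Sesn2, 0.81 for Cebpb and 0.13 for Yars between the exposure times. With a library left out, the ranges that crossed 0 at 3 weeks were -0.14 to 0.15 for Atf4, -0.26 to 0.062 for Chac1, -0.15 to 0.10 for Lars, -0.21 to 0.31 for Ppp1r13l and -0.099 to 0.36 for Parp9. At 7 weeks they were -0.085 to 0.25 for Atf4, -0.35 to 0.072 for Ddit3, -0.055 to 0.18 for Ddit4, -0.051 to 0.35 for Chac1 and -0.31 to 0.63 for Cebpb. Between the exposure times they were -0.073 to 0.23 for Atf4, -0.15 to 0.0050 for Ddit4, -0.11 to 0.17 for Asns and -0.26 to 0.21 for Sesn2. No paired analysis was possible because each library is a separate rat that belongs to a single group.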
